A study of Homo sapiens with 18 samples.

Results

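Of 51909 chromatin sites measured by ATAC-seq in LNCaP cells, 10246 (19.7%) lay away from genes' start sites, appeared in the peak list of TSA-treated cells but not in that of vehicle-treated cells, and held no enhancer active in WHG-STARR-seq. They were chosen by overlap with the lists and by distance. Each list is cut at a lowest peak score, so presence in 1 list and absence from the other rest on scores too. Each shares at least 1 base with a TSA peak and none with a vehicle peak, has its centre more than 1 kb from every start site of a basic GENCODE transcript, and shares no base with any of 94527 enhancers. LNCaP is an established human prostate adenocarcinoma line, so all results refer to 1 cell line. Cells received the histone deacetylase inhibitor TSA at 100 ng/ml for 24 h or DMSO vehicle for 24 h. ATAC-seq and mRNA-seq each had 3 TSA and 3 vehicle libraries, and WHG-STARR-seq, which reads out the enhancer activity of genomic fragments on plasmids, had 2 output libraries from LNCaP cells without TSA or DMSO and 1 input library from the plasmids. The peak lists describe pooled libraries, 40995 peaks under TSA and 38813 under vehicle, so presence in a list is 1 observation per condition without a replicate error.

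Accessible chromatin away from genes mostly marks regulatory elements, where transcription factors hold DNA free of nucleosomes. Histone deacetylases remove acetyl groups from histone tails, and their inhibition lets acetylation accumulate, which loosens the contact of histones with DNA. AP-1, dimers of JUN and FOS proteins, binds many inducible enhancers, whereas forkhead proteins such as FOXA1 hold open the enhancers of luminal prostate cells. Much of the remaining genome consists of copies of transposable elements, among them Alu and L1, which are kept silent in most cells by repressive chromatin.

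The defining genes of the luminal prostate were expressed, as the label LNCaP implies. The levels are pooled over TSA and vehicle libraries. In the authors' average over mRNA-seq libraries FOLH1 reached 11.17 log2 CPM, HOXB13 8.81, KRT8 8.70, KLK3 8.04, KRT18 7.89, TMPRSS2 6.00 and KLK2 4.41, all of them above the median of 2.94 over all 22336 genes. The basal markers KRT14 (-0.86) and TP63 (-1.89) and the leukocyte marker PTPRC (-1.89) were below that median, while the basal keratin KRT5 stood at 6.23, the stromal genes COL1A1 at 6.77, VIM at 5.88 and COL3A1 at 0.23, and the macrophage marker CD68 at 3.17.

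Of the sequence elements compared in windows that occur in 1 place of the genome, the AP-1 consensus TGANTCA differed most between these sites and distal sites open in both conditions. Windows that hold it are shown on the plus strand of hg19, 75 bases to each side of the peak centre, with each match in capitals. They have the highest scores among such single-copy windows, next to that near AUTS2 given further on. They lie, in this order, in an intron (nearest gene C5orf49), 139 kb downstream of the start of the desmosomal cadherin gene DSC3, 108 kb upstream of KLHL4, 147 kb upstream of MIR223, and in an intron 4.27 kb downstream of the start of OCIAD2.
chr5:7742546-7742695: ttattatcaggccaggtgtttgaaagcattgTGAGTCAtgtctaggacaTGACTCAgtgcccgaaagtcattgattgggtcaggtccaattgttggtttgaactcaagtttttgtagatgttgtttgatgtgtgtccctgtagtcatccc
chr18:28483586-28483735: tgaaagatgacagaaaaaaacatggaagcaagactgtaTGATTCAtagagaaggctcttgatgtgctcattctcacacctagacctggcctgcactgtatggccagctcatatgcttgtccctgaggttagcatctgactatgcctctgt
chrX:86664527-86664676: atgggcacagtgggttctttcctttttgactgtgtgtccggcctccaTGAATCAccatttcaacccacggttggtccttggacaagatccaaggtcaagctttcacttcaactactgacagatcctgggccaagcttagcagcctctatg
chrX:65091935-65092084: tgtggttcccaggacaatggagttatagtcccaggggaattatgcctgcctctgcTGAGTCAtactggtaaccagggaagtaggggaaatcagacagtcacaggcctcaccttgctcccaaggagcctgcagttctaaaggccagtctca
chr4:48904443-48904592: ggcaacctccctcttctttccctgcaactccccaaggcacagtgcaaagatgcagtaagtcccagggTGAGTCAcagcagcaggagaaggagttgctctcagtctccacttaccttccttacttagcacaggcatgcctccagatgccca
The 5 sites scored from 0.0944 to 0.138 and the first of them carries 2 matches within the window.

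A second sequence, the cAMP response element TGACGTCA bound by CREB and ATF proteins, was rare, and was found in 1 single-copy window of the sites found only in vehicle. Both highest scoring sites that hold it are shown in the same way with the element in capitals. The first lies in an intron 3.22 kb upstream of a start site of CREB5, itself a gene of this family of factors, and scored 0.0879. The other lies between genes, 100.4 kb upstream of LOC150568, and scored 0.0838.
chr7:28448840-28448989: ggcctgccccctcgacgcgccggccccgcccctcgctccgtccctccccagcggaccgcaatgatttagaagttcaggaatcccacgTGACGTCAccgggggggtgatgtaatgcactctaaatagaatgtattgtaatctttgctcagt
chr2:104949293-104949442: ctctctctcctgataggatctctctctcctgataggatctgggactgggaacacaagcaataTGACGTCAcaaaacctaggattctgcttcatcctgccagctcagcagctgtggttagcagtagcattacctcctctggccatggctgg

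Not every strong site carried such an element. Single-copy sites among those with the highest scores, up to 0.152, are shown as the 200 bases around the peak centre, with any TGANTCA, TGACGTCA or CAGCTG in capitals. The first, 961 kb from the nearest gene LOC440970, and the second, 44.6 kb upstream of the glutamate receptor gene GRIA1, hold none of these. The last, 186 kb upstream of AUTS2, holds 1 AP-1 consensus, and its site lies 0.038 kb from a vehicle peak.
chr3:83783648-83783847: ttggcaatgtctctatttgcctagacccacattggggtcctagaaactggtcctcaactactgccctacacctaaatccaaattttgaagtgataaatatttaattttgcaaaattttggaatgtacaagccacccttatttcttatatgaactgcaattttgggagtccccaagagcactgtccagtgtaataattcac
chr5:152825516-152825715: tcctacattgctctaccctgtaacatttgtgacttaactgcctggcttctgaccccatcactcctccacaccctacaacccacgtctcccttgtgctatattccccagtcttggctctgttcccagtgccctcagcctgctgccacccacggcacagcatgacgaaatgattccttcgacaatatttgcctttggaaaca
chr7:68877612-68877811: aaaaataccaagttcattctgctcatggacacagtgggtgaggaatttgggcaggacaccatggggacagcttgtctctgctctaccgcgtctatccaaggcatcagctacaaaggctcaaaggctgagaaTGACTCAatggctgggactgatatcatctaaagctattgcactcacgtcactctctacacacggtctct

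Most peaks behind these sites had low scores. The Fseq score, a density of transposase insertions on the caller's own scale, had a median of 0.0447 in the 10246 sites, with quartiles of 0.0405 and 0.0521 and a highest value of 0.298. The TSA list ends at 0.0377, so 3241 of the sites (31.6%) were within 10% of the lowest score listed, and 1279 (12.5%) scored below 0.0390, the lowest score in the vehicle list. The lists come from separate calls, and whether their scores share a scale is not known. A score of at least the median of all TSA peaks, 0.0588, was reached by 1479 (14.4%). Distal sites listed in both conditions (13888 without an enhancer) had a median TSA score of 0.0607, and 32.3% of them reached 2 times the floor of the list against 4.66% of the TSA-only sites. Shared sites had to pass the cut of both lists, so higher scores among them follow in part from the rule. The 10102 distal sites found only in vehicle mirrored the TSA-only sites, with a median score of 0.0467 in their own list and 5.48% at 2 times its floor. Because scores come from pooled libraries, no spread between libraries goes with them. For bulk chromatin, more cells with an open site and a more open site in each cell cannot be told apart.

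**Figure D1:**
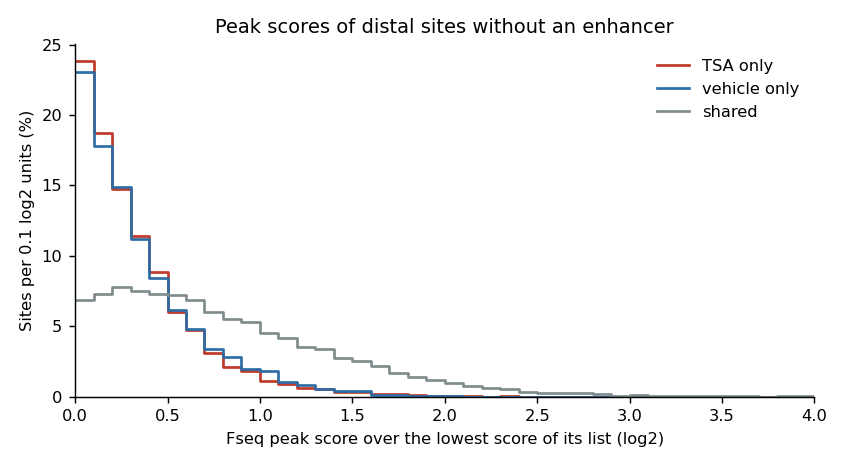
Distribution of the Fseq score of distal sites without an enhancer, as the log2 ratio over the lowest score of the list the site was taken from (TSA list for TSA-only and shared sites, vehicle list for vehicle-only sites). The TSA-only and vehicle-only curves both fall steeply from the floor, and 4.66% and 5.48% of their sites lie at 1 log2 unit or more, against 32.3% of shared sites. Shared sites had to pass the cut of both lists, so this order follows in part from the rule.

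Sites on both sides of the distance rule were alike in these measures. The 45 TSA-only sites without an enhancer at 901 to 1000 bases from a start site had a median score of 0.0439 and 55% GC, and the 47 at 1001 to 1100 bases had 0.0450 and 56%. The median width was 695 bases, against 1097 for shared sites, and the authors' average level over the ATAC-seq libraries was 2.65 log2 CPM against 3.82. That average covers both conditions, so a lower value at sites without a vehicle peak follows in part from the rule. From the edge of a TSA-only site to the nearest vehicle peak there were 20208 bases in the median, and 293 sites (2.86%) had a vehicle peak within 500 bases.

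Repeated sequence made up a large part of the sites. In the 200 bases around the peak centre, words of 24 bases occurred 10 or more times in the genome, by the median word, in 3186 sites (31.1%). Among vehicle-only distal sites the share was 18.2%, and among shared distal sites 6.04%. The difference was 12.9 percentage points to vehicle-only sites (95% interval 11.7 to 14.1) and 25.1 to shared sites (24.1 to 26.0). These Newcombe intervals, like all intervals given here, cover counting error over sites, which are not replicates of a condition. The repeated sites had a median level of 0.68 log2 CPM, against 2.99 for the 6658 sites (65.0%) whose median word occurs in 1 place. The authors kept uniquely aligned reads, and the part of this step in the difference was not tested.

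Alignment of the windows to each other gathered 93.3% of the repeated TSA-only sites into families, of which the 4 largest are recognizable from their sequence. The word of 24 bases found in the largest number of a family's TSA-only sites, 28.2% to 31.6% of them, is given for 3 of them.
Alu: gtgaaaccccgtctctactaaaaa
L1, first part: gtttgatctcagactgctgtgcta
LTR12-like: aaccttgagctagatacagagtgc
Alu is a short retroelement of primates. The first and end parts are opposite ends of L1, the retrotransposon that still moves in the human genome, and the last family resembles LTR12, the terminal repeat of an endogenous retrovirus. Names rest on the sequence itself, since no repeat annotation was used.

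The first part of L1, which carries the promoter of the element, was much more common in TSA-only than in vehicle-only sites. It held 748 of them (7.30%, 95% interval 6.81 to 7.82), 53 vehicle-only sites (0.525%, 0.401 to 0.686) and 283 shared sites (2.04%, 1.82 to 2.29). In contrast, the end part of L1 was about as common in the TSA-only (364, 3.55%) and vehicle-only sites (371, 3.67%), with a difference of -0.12 percentage points (-0.63 to 0.39). Both are ends of the same kind of element. Whether the end-part sites lie in copies that also hold a first part was not examined. The end part lay 4.5 to 7.5 kb away in 675 of the 748 TSA-only sites (90.2%), at a median of 5.27 kb. Only the side and strand that most hits shared were counted, and 109 of the 748 had a hit on the opposite side. Among sites of this family the share was 88.7% for vehicle-only, 91.5% for shared and 94.6% for TSA-only sites with an enhancer. In each class the first part thus mostly sat at the start of long copies. The word of the first part occurred in 211 TSA-only, 4 vehicle-only and 86 shared sites, and in 139 TSA-only sites with an enhancer. It was picked for its frequency in TSA-only sites, so its count there is no separate evidence of a difference.

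These L1 sites also had higher scores than sites outside any family, though a lower average level. Their median score was 0.0526, against 0.0446 for sites outside any family and 0.0588 for all TSA peaks. The level was 1.50 against 2.96 log2 CPM outside any family, and 156 of 748 (20.9%) reached 2 times the floor of the list against 3.56%. The part of unique alignment in these scores was not tested. Of the 10 TSA-only sites with the highest scores, 8 were L1 first parts, and of the highest 100 they were 49. The site with the highest score of all, 0.298, was an L1 first part on chromosome 8 between genes, 983 kb from the start of TRPS1, a GATA-type transcriptional repressor. Others among the first 10 lay nearest C6orf170 (0.231), TEX13A (0.208), the olfactory receptor gene OR2G6 (0.201), the axon guidance receptor gene ROBO2 (0.195), FAM155B (0.187), UNC5D (0.184), a netrin receptor gene, and BMPER (0.175). The remaining 2 were an LTR12-like site 143 kb downstream of the start of ARRDC4 (0.191) and a site with 71.5% GC that lay 1717 kb from SLITRK1 (0.280), with no family.

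Many L1 first parts were also active as enhancers and were left out by the rule. Of the 1117 TSA-only distal sites in this family, 369 (33.0%, 30.3 to 35.8) shared a base with a WHG-STARR-seq enhancer, while for all 11626 TSA-only distal sites the share was 11.9% (11.3 to 12.5). For the LTR12-like family it was 35 of 127 (27.6%, 20.5 to 35.9), and for Alu 47 of 1699 (2.77%, 2.09 to 3.66). Among distal sites in both conditions 11.8% shared a base with an enhancer, and among those only in vehicle 4.53%.

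Alu was the largest family, with 1652 TSA-only sites (16.1%), 935 vehicle-only sites (9.26%) and 412 shared sites (2.97%). Its TSA-only sites were narrow, with a median width of 437 bases, low in the authors' average (0.78 log2 CPM) and close to the floor, with a median score of 0.0440. LTR12-like sequence was found at 92 TSA-only sites (0.898%) and 24 vehicle-only sites (0.238%).

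**Figure D2:**
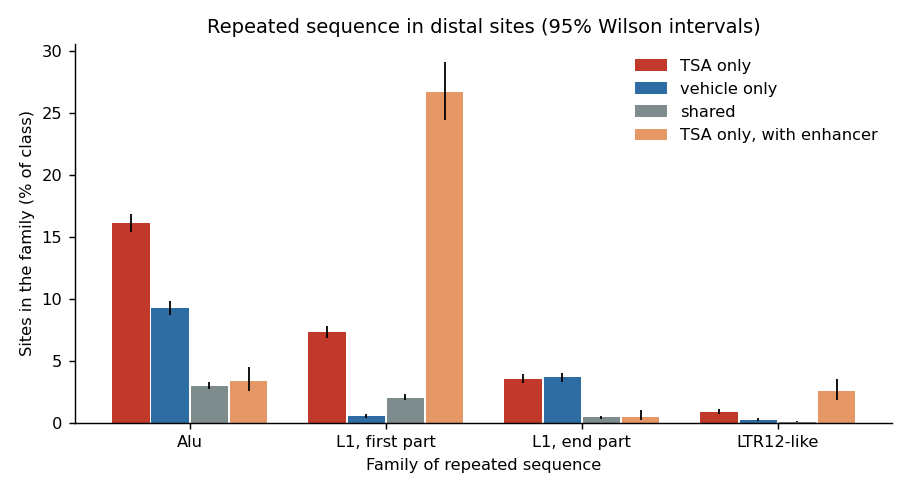
Share of the sites of each class that belong to the 4 largest families of repeated sequence (bars, percent of the class, with 95% Wilson intervals), including TSA-only distal sites that do share a base with an enhancer. L1 first parts make up 7.30% of the TSA-only sites without an enhancer, 0.525% of the vehicle-only sites and 26.7% of the TSA-only sites with an enhancer, whereas L1 end parts take 3.55% and 3.67% of the TSA-only and vehicle-only sites.

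The sites found only under TSA were richer in G and C than those found only in vehicle. The 200-base windows had a median GC content of 51.5% (quartiles 45 and 57), against 40% for vehicle-only and 47.5% for shared distal sites. In single-copy windows the medians were 50.0%, 39.0% and 47.0%, and 53.0% for TSA-only distal sites with an enhancer. A GC content under 40% was found in 10.9% of single-copy TSA-only windows and in 54.6% of vehicle-only windows, and 60% or more in 13.7% and 3.43%. At 5 kb to each side of single-copy windows the medians were 42.0% and 39.3%, a smaller difference than within the sites. The GC dependence of the libraries, which could move with this result, was not tested.

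**Figure D3:**
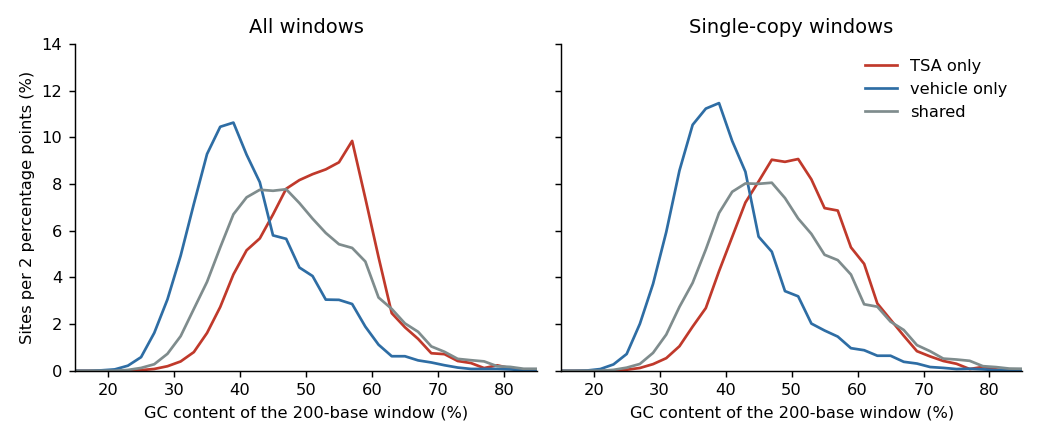
GC content of the 200 bases around the peak centre (x axis, percent) in TSA-only, vehicle-only and shared distal sites without an enhancer, as the percent of each class per 2 percentage points, for all windows (left) and single-copy windows (right). The vehicle-only curve peaks near its median of 39.0% in single-copy windows and the TSA-only curve near 50.0%.

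Motifs were counted on both strands in the same windows, and 28 consensus sequences were compared. In single-copy windows, AP-1 (TGANTCA) was held by 943 of 6658 TSA-only sites (14.2%, 95% interval 13.3 to 15.02), 636 of 8057 vehicle-only sites (7.89%, 7.32 to 8.50) and 1165 of 12635 shared sites (9.22%, 8.73 to 9.74). In these windows the difference to shared sites was 4.94 percentage points (3.98 to 5.93), the largest of the 28 motifs. That to vehicle-only sites was 6.27 (5.25 to 7.30). TSA-only distal sites that do share a base with an enhancer held it in 153 of 852 single-copy windows (18.0%, 15.5 to 20.7). Windows 5 kb to each side of the TSA-only sites held it in 6.23%, as did 7.92% of all single-copy sites. Over all windows, repeats included, the share was 10.1% against 6.74% and 8.78%, and Alu and L1 first parts held it in 2.30% and 2.41% of their TSA-only sites.

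The AP-1 difference was present at every GC content. In all 7 ranges of GC the TSA-only sites held the motif more often than the vehicle-only and the shared sites, with an interval of the difference above 0 in 6 and in 7 ranges. Between 40% and 45% GC, for example, it was in 20.4% of TSA-only, 8.67% of vehicle-only and 11.9% of shared windows. Its middle base was C or G, the form that AP-1 binds best, in 76.5% of 1060 matches in TSA-only windows, 50.1% of 661 in vehicle-only windows and 66.9% of 1253 in shared windows. Windows with the form that has A or T there were about equally common, 3.57%, 4.01% and 3.21%. The sequences beside TGAGTCA were not even, since among 804 matches in TSA-only windows A stood before it in 35.8% and T in 10.1%, and T stood after it in 36.3% and A in 7.46%. More than 1 match was found in 109 TSA-only windows (1.64%), 23 vehicle-only windows (0.285%) and 85 shared windows (0.673%).

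Along the site, AP-1 matches were concentrated at the centre. There were 0.853 matches per kb in the 100 bases before the peak centre of TSA-only sites and 0.783 in the 100 bases after it, while in the steps beyond 500 bases the values lay between 0.282 and 0.383. Vehicle-only sites had 0.439 and 0.412 matches per kb at the centre, and shared sites 0.514 and 0.513. Among TSA-only sites the share with AP-1 was 11.7% (10.2 to 13.3) in the lowest quartile of the score, 15.3% and 14.5% in the next ones and 15.2% (13.6 to 17.0) in the highest. It was 15.1% in introns, 13.5% between genes and 9.51% (6.62 to 13.5) in exons.

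Forkhead sequence showed the opposite order. TGTTTAC was held by 4.96% (4.46 to 5.50) of single-copy TSA-only windows, 13.7% (13.0 to 14.5) of vehicle-only windows and 7.10% (6.66 to 7.56) of shared windows, and its variant TGTTTGC by 5.42%, 11.8% and 7.44%. Over all single-copy sites the shares were 6.22% and 6.17%. Windows 5 kb to each side of TSA-only sites held TGTTTAC in 2.97%. The difference to vehicle-only sites lay below 0, with its interval, in 5 of 7 GC ranges, and that to shared sites in 1 of 7. In single-copy windows the difference to shared sites was -2.14 percentage points (-2.82 to -1.44), over all windows it was -0.52 percentage points (-1.18 to 0.15), and for TSA-only sites with a score of at least their median it turned to 1.32 (0.44 to 2.24). TGTTTAC was in 42.0% of the TSA-only L1 first parts, whose scores were higher than those of sites outside any family. The HOXB13 consensus CCAATAAA, of a homeobox factor of the prostate, was in 1.29% of TSA-only, 3.20% of vehicle-only and 1.39% of shared windows, and in 1.39% of all single-copy sites. For AGAACA, to which steroid receptors bind, the shares were 14.6%, 19.6% and 15.3%, next to 15.3% in the flanks of TSA-only sites and 13.1% of all single-copy sites. TGTTTGC, CCAATAAA and AGAACA were not compared within ranges of GC.

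**Figure D4:**
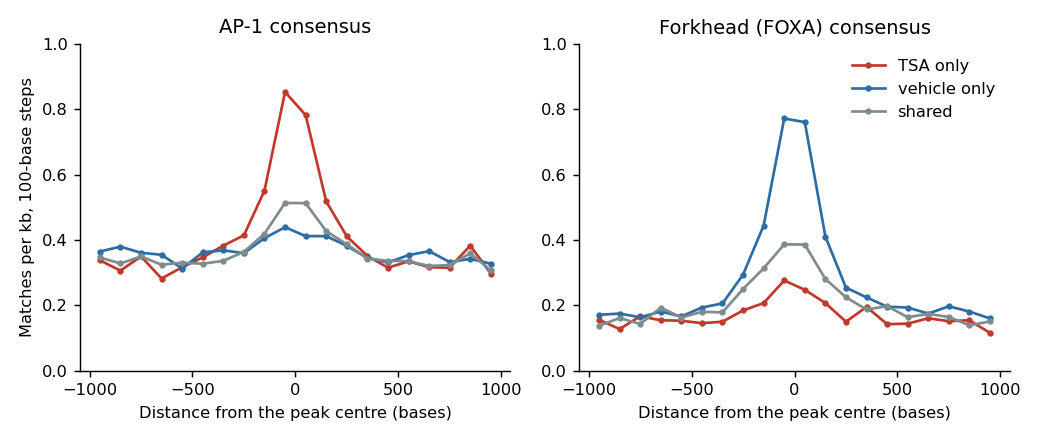
Matches per kb to the AP-1 (left) and forkhead (right) consensus in steps of 100 bases from 1000 bases before to 1000 bases after the peak centre, in single-copy TSA-only (n = 6658), vehicle-only (n = 8057) and shared (n = 12635) distal sites. AP-1 peaks at 0.853 per kb in TSA-only sites and stays at 0.439 in vehicle-only sites, while the forkhead consensus peaks at 0.772 in vehicle-only sites and at 0.276 in TSA-only sites.

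Against vehicle-only sites, E-boxes differed by more than AP-1. CACCTG, bound by SNAI and ZEB proteins among others, was in 20.8% (19.9 to 21.8) of single-copy TSA-only windows, 12.8% (12.1 to 13.6) of vehicle-only windows and 18.5% of shared windows, and in 17.3% of all single-copy sites. The difference to vehicle-only sites was 8.01 percentage points (6.80 to 9.24), and it was not compared within ranges of GC. The E-box CAGCTG, bound by ASCL and other bHLH proteins, was in 16.1% of single-copy TSA-only windows, 9.07% of vehicle-only windows and 12.5% of shared windows, as in 12.5% of all single-copy sites, but within ranges of GC its interval lay above 0 in only 2 of 7 ranges against vehicle-only and 3 of 7 against shared sites. TGACGTCA occurred in 38 TSA-only windows (0.571%, 0.416 to 0.782), 1 vehicle-only window (0.0124%, 0.00219 to 0.0703) and 28 shared windows (0.222%, 0.153 to 0.320), against 0.496% of all single-copy sites, those near start sites included. Within ranges of GC the interval of its difference lay above 0 in 2 of 7 against vehicle-only and 1 of 7 against shared sites. The CTCF consensus, of the factor that anchors chromatin loops, was in 5.90% of TSA-only windows, close to the 6.20% of shared windows (difference -0.29 percentage points, -0.99 to 0.42) and above the 2.82% of vehicle-only windows. In single-copy windows, 9 of 28 motifs had an interval above 0 and 2 below 0 against shared sites, both of the latter forkhead motifs, and 12 above and 8 below against vehicle-only sites. Over all windows, repeats included, the counts were 7 above and 14 below against shared sites, and 12 above and 13 below against vehicle-only sites. Only AP-1, TGTTTAC, TGACGTCA and CAGCTG were compared within ranges of GC, so CTCF and these counts were not. TEAD (CATTCCA) was about as common in TSA-only as in vehicle-only windows, at 4.21% and 4.20%, with a difference of 0.01 percentage points (-0.64 to 0.67), and stood at 3.24% over all single-copy sites.

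**Figure D5:**
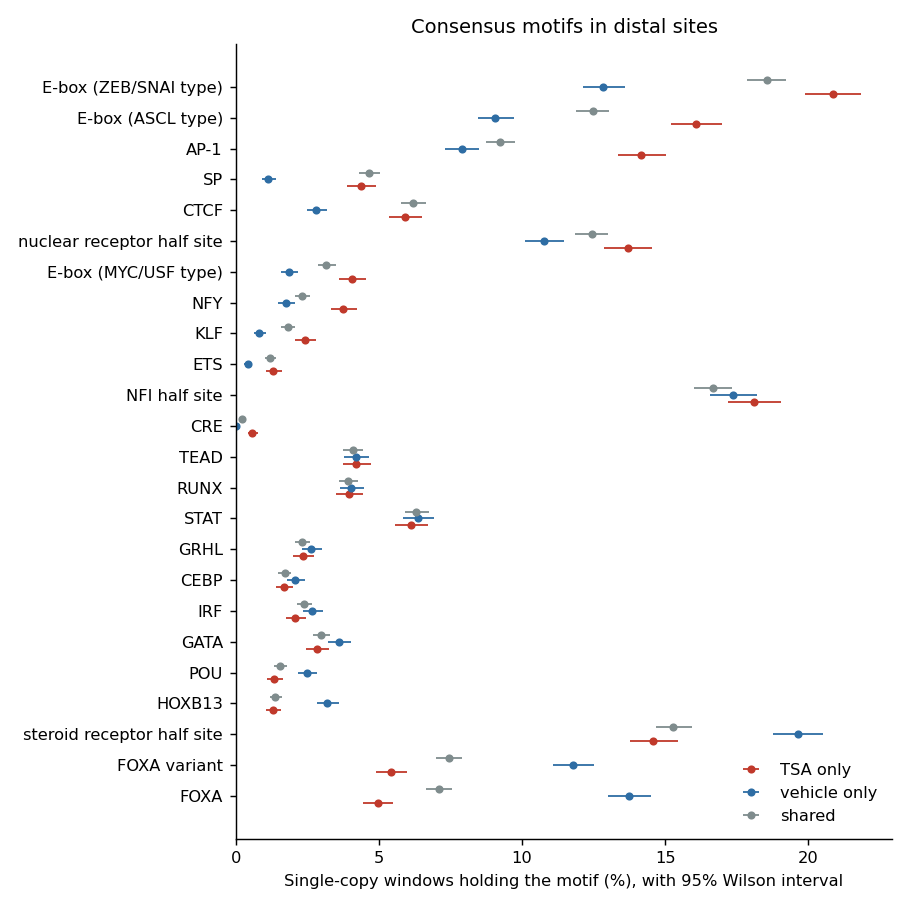
Percent of single-copy 200-base windows that hold each of 24 of the 28 consensus motifs (points, with 95% Wilson intervals) in TSA-only, vehicle-only and shared distal sites, ordered by the difference of TSA-only to vehicle-only sites. AP-1 stands at 14.2% in TSA-only sites against 7.89% and 9.22%, and the forkhead motif at 4.96% against 13.7% and 7.10%. The 4 motifs left out were held by at most 1.02% of the windows of a class. The windows of the classes were not matched for GC content here.

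The centres of the sites lay in introns for 5096 (49.7%), between genes for 4824 (47.1%) and in exons, non-coding ones included, for 326 (3.18%). Introns held 54.9% of vehicle-only and 51.9% of shared distal sites. The median distance to a start site was 21.0 kb, against 22.8 kb and 19.0 kb. From 10 to 50 kb away there were 4704 sites (45.9%), and 958 (9.35%) lay 100 to 500 kb away. The nearest enhancer was 10.8 kb away in the median, and it was one without DNase I accessibility for 88.2% of the sites, while 82547 of all 94527 enhancers were of that kind.

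By chromosome, X and Y gave the highest shares of sites that were TSA-only and distal, 914 of 3316 (27.6%) and 113 of 389 (29.05%), and chromosome 19 the lowest, 149 of 1439 (10.4%). On X, 508 of the 914 (55.6%) were repeated sequence, and X held 311 of the 544 sites with an average level under 0 log2 CPM, of which 99.3% were repeated. Vehicle-only distal sites were as numerous on X (929). Per Mb, single-copy TSA-only sites on X (2.38) were within the range of the autosomes, 0.706 on chromosome 21 to 2.94 on chromosome 11.

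Most sites stood alone. With gaps of up to 20 kb, 967 runs of 2 or more held 2112 sites (20.6%), and no run exceeded 5 sites. The 5 runs of 5 sites were at the zinc finger genes ZIC4 and ZIC1 on chromosome 3 (147095069 to 147138073, 43.0 kb), at LOC650293 on chromosome 4 (31.3 kb), at RGS7 and FH on chromosome 1 (30.9 kb), at SPATA17 on chromosome 1 (29.1 kb) and at GYPC, a gene of red cell membranes, on chromosome 2 (23.05 kb). The run at ZIC4 and ZIC1, developmental genes of the hindbrain, had no repeated windows, and its scores reached 0.102. Between its sites lay 2 shared sites, 1 vehicle-only site and 1 site of another class. The run at LOC650293 had 2 repeated windows of 5 and that at RGS7 and FH had 3.

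At least 1 of the sites was nearest to 5254 of the 21391 genes with a start site (24.6%). The median level of these genes was 1.99 log2 CPM, that of genes nearest a vehicle-only distal site 2.08, that of genes nearest a shared distal site 2.15, and that of all genes 3.06. These levels are the authors' averages over libraries and were not tested. The genes nearest most sites were KCNT2 (20), a potassium channel gene, CNTNAP2 (19), of neuronal adhesion, SPRY2 (18), an inhibitor of growth factor signaling, GBE1 and MYOM2 (17 each), GYG2P1 and PCDH7 (16 each), and B3GALT2, ROBO2 and SORCS1 (15 each). Most were nearest to as many vehicle-only sites, such as KCNT2 with 24, GBE1 with 20 and ROBO2 with 18. SPRY2 and MYOM2 had fewer vehicle-only sites, 6 and 5, but 22 and 23 shared distal sites. CNTNAP2 and B3GALT2 also had fewer vehicle-only than TSA-only sites, with 12 each. These counts grow with the length of a gene and the distance to its neighbors, and were not adjusted for it.

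Lists of genes were compared in the same way, by how many of their genes were nearest to at least 1 site. Over all genes the share was 24.6% for TSA-only sites, 21.7% for vehicle-only sites and 27.2% for shared distal sites. Neuronal adhesion, axon guidance and transmitter receptor genes were above it in each class. Of 25 neuronal cell adhesion genes 21 had a TSA-only site, 20 a vehicle-only site and 22 a shared site, with CNTNAP2, NRXN3 (13 TSA-only sites), CNTNAP5 (11) and CADM2 (7) first. Of 25 axon guidance genes the counts were 22, 21 and 21, with ROBO2, ROBO1 (14), SLIT2 (11) and UNC5D (8), and of 25 transmitter receptors 19, 17 and 20, with CHRM3 (8), GRIA1 (6) and GRIK2 (4). Synaptic genes had 14, 11 and 11 of 25, led by DLG2 (12), and voltage-gated channels 10, 14 and 12 of 25, led by KCND2 (8). The intervals for channels under TSA (23.4 to 59.3) and for synaptic genes with shared sites (26.7 to 62.9) include the share over all genes. In number of sites, adhesion genes had 107 TSA-only and 145 vehicle-only sites, axon guidance genes 106 and 144, and channels 32 and 47.

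WNT pathway genes were the list with the widest gap between the classes. Of 26 genes 12 (46.2%, 28.8 to 64.5) were nearest to a TSA-only site and 4 (15.4%, 6.15 to 33.5) to a vehicle-only site, and 13 to a shared site. The receptor gene FZD1 had 6 TSA-only sites and 0 vehicle-only sites, its highest in an intron 180 kb upstream with a score of 0.0834. TCF7L2, a nuclear effector of the pathway, and the ligand gene WNT7B had 2 each, and AXIN2, a feedback inhibitor, had 1. The intervals of the 2 shares overlap, and 19 lists were compared.

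Genes of the prostate had fewer TSA-only than vehicle-only sites in number, with overlapping intervals of the shares. Of 14 luminal genes 6 were nearest to a TSA-only site and 7 to a vehicle-only site, with 15 and 22 sites in all, among them FOXA1 with 4 and 2. FOLH1 had 1 and 5. Of 20 androgen-responsive genes the counts were 6 and 9, with 10 and 21 sites, and PMEPA1 had 3 and 0. Histone deacetylase genes, whose products TSA inhibits, had a TSA-only site in 5 of 11, namely HDAC9 (3), HDAC2, HDAC4 and HDAC8 (2 each) and 1 further gene, against 3 of 11 for vehicle-only sites. The interval of the TSA-only share of deacetylase genes (21.3 to 72.0) includes the 24.6% of all genes. Of 11 AP-1 genes JUN had 1 TSA-only site, 4.05 kb downstream of its start with a score of 0.0391, and no AP-1 gene had a vehicle-only site. The intervals of the TSA-only share for both prostate lists and for AP-1 genes include 24.6% too.

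Regulators of tissue structure lay between these. TGF-beta and BMP genes had a TSA-only site in 14 and a vehicle-only site in 11 of 25, led by the receptor gene BMPR1B and the signal transducer gene SMAD2 (5 each), receptor tyrosine kinase genes in 11 and 10 of 25, led by NTRK3 (8), and collagen genes in 11 and 11 of 23, led by COL22A1 (9). The site nearest ERBB3 with the highest score (0.048), 3.02 kb into the gene, held the AP-1 consensus. So did that 22.8 kb upstream of EGFR (0.046), while the highest scoring sites nearest NTRK3 and PDGFRA did not. Compact gene families had few sites. None of 23 HOX genes was nearest to a site of any class, and TSA-only sites were nearest to 1 of 15 keratin genes (KRT20), 2 of 21 epidermal differentiation genes (IVL and S100A7) and 2 of 20 ribosomal protein genes (RPS14 and RPS27). For keratin, epidermal differentiation and ribosomal protein genes the interval of the share includes the 24.6% of all genes. Of 15 cell cycle inhibitors 2 (CDKN2B and CDKN2A, 3.74 to 37.9%) were nearest to a TSA-only site, 5 to a vehicle-only site and 7 to a shared site.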

How the data were processed

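ATAC-seq, mRNA-seq and WHG-STARR-seq of LNCaP cells were used, and the 3 untreated mRNA-seq libraries were not used as a group here. Whether the authors' average level of genes includes them is not stated. For ATAC-seq, reads were placed on hg19 by the authors with Bowtie and, where unmapped, with Bowtie2 after cutadapt. They kept unique alignments, removed duplicates with Picard, moved read starts to the centre of the transposase site and called Fseq peaks on the pooled libraries of each condition, and the deposited peak lists give an Fseq score. For merged sites and for genes (TopHat) the deposited tables give an average in log2 CPM, and further columns with the authors' edgeR comparison of TSA with vehicle (fold change, likelihood ratio, p-value and, for sites, q-value), which were not used. For enhancers, the authors called MACS2 peaks on pooled output against input, and the deposited lists give a fold enrichment as a ratio, which was not needed beyond the positions. Their versions are not given in the labels or methods used here, and the depth of each library is unknown. No column belonged to other samples.

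Sites were classified with GENCODE 44 mapped to hg19 (overlap of 1 base, distance to the start site over 1000 bases). Windows of 200 bases were read from the GRCh37 genome, around the centre of the highest peak. Words of 24 bases were counted over the genome. In turn, the window that had 10 or more words in common with most others was aligned to all windows by blastn 2.17.0, and its hits formed a family (E-value 1e-10, 80 aligned bases). Shares have 95% Wilson and Newcombe intervals. No test between conditions was made, because no file gives values per library. Of 22336 genes, 21391 had a start site, and 85 symbols placed at several loci were left out. Overlaps, distances, motifs, words and intervals were tested on simulated data. Sites, gene lists, motifs and comparisons were chosen with earlier results of these data known. Repeats, single-copy windows and ranges of GC were added after seeing the data. Named genes were those nearest the 10 highest scores, the 10 with most sites, those at the longest runs (all 5 tied runs, not 3) and up to 4 per list. Windows shown are from the highest scoring ones outside chromosome 8, in single copy, passing over 1 in an exon. Some genes, a gene list and some sequences are not reported here.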

Additional observations from a re-analysis of the deposited data

How the results depend on the processing

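Requiring an overlap of 50% of the shorter interval left the number of sites at 10246, and the other changes of position (no vehicle peak within 500 bases, 2500 bases from start sites, start sites of all transcripts) gave 9955, 9589 and 9903. A score of at least the median of the TSA list left 1479 sites and single-copy windows 6658, since both remove sites. With start sites of all transcripts, 48.7% of the sites were in introns and the median distance was 16.9 kb. For sites scoring at least their median these were 48.4% and 22.8 kb, and in single-copy windows 51.5% and 19.2 kb. The AP-1 difference to shared sites (1.35 percentage points over all windows) kept its direction under each of the 5 alternatives and was 4.94 percentage points in single-copy windows. The forkhead difference to shared sites was -2.14 in single-copy windows and -0.52 over all windows. Over all windows it reversed to 1.32 for sites scoring at least their median. The cause was not tested. The median GC was 49.8% in windows of 400 bases, 52.0% for sites scoring at least their median and 50.0% in single-copy windows. The share of genes nearest a site was 29.2% among genes of at least 0 log2 CPM, 16.6% for sites within 50 kb and 19.0% for single-copy windows. Single-copy windows and leaving out chromosomes X and Y were chosen after seeing the data. The number of libraries behind each peak, and so the depth at each site, is not known from the lists, which limits every statement on presence or absence near the lists' lowest scores. No paired analysis was possible because the lists are pooled over replicates and no result comes from a test.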
